A study of Rattus norvegicus with 6 samples.

Results

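This report describes 6417 regions of accessible chromatin in INS-1 cells whose ATAC-seq signal was lower in Med14 S983A cells than in WT cells, whether the cells were untreated or stimulated. INS-1 is a rat insulinoma line used as a model of the pancreatic beta cell. The mutant cells carry an alanine in place of a serine of Med14 that protein kinase A phosphorylates, and the WT cells have the serine. Cells of each genotype were untreated (CON), treated for 1 h with 10 nM exendin-4 (Ex-4), an agonist of the GLP-1 receptor, or treated for 1 h with 10 µM forskolin (FSK), which activates adenylate cyclase directly. Each of the 6 conditions was measured in 1 library, so the spread between replicates is unknown, conditions were compared without a test, and each difference is one between single libraries. Per the methods, all experiments used replicates and a pair of Med14 S983A knock-in lines made independently with CRISPR. The labels give 1 library per condition, and neither source names the line behind each mutant library or says whether lines were pooled in it, so that in these values the mutation and the line cannot be told apart.

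The regions were chosen by their measured values. Of 220490 peaks merged over the 6 libraries, 86576 outside the mitochondrial chromosome had been called in every library. Of these, 83865 had a mean of at least 1 FPKM and lay outside 4 regions of chromosomes 4, 5, 9 and 15 that had already been seen to shift as blocks between the genotypes. FPKM here is the number of reads per kilobase of peak, scaled to the library's total of reads inside its own peaks. A peak was selected when log2(FPKM + 0.5) was lower by at least 1 in Med14 S983A than in WT in each of the 3 treatments. The 6417 selected peaks are 7.65% of the shared peaks tested and 2.91% of all merged peaks. The opposite rule, higher by at least 1 in all 3 treatments, gave 1975 peaks (2.35%), so that 3.25 peaks were stably lower for each one stably higher. With each library centred on its median, this ratio was 2.03. With the 4 regions put back, 6660 peaks were lower and 2494 higher, a ratio of 2.67. Inside these regions, 243 of 2600 peaks met the rule.

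Mediator is the large complex that connects transcription factors bound at enhancers with RNA polymerase II at promoters, and Med14 is the subunit that holds its modules together. In the beta cell, GLP-1 receptor agonists raise cAMP, which activates protein kinase A and the transcription factor CREB. ATAC-seq uses the Tn5 transposase to cut DNA where nucleosomes leave it free, and its peaks therefore mark accessible promoters, enhancers and insulators. Genes, sequences and motifs at the peaks were not analysed here, because the gene annotation and genome at hand are of another build than rn6.

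The libraries held between 134300000 and 251200000 reads in peaks, recovered from the steps between the smallest values. WT FSK was the deepest, and within each treatment the WT library was deeper than the mutant one. Even the shallowest library counted the selected peaks well. The median selected peak held between 990 and 1576 reads in the WT libraries and between 203 and 234 in the mutant libraries, and the fewest reads in any of them was 29. The 95% Poisson intervals of the WT and mutant values, which cover counting error only, did not meet in any treatment at any of the 6417 peaks. The 2-fold rule largely sets this outcome at such counts, and the share over all tested peaks was not computed.

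In WT cells the selected peaks were of ordinary strength. Their median level was 11.1 FPKM in WT CON, 11.1 in WT Ex-4 and 10.4 in WT FSK, against 8.85, 8.77 and 8.46 FPKM over all shared peaks tested. In Med14 S983A cells the median was 2.60 FPKM in CON, 2.74 after Ex-4 and 2.38 after FSK, against 8.0, 8.02 and 7.38 over all tested peaks. The selected peaks therefore sat slightly above the typical peak in WT and well below it in the mutant, while the whole set of tested peaks was close to even. They were not the strongest peaks of WT cells, since the upper quartile of their WT CON level was 17.5 FPKM and that of all tested peaks was 18.4. As a share of all signal in tested peaks, they held 6.46% in WT CON, 6.46% in WT Ex-4 and 6.64% in WT FSK. In the mutant they held 1.65%, 1.69% and 1.63% of it.

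**Figure D1:**
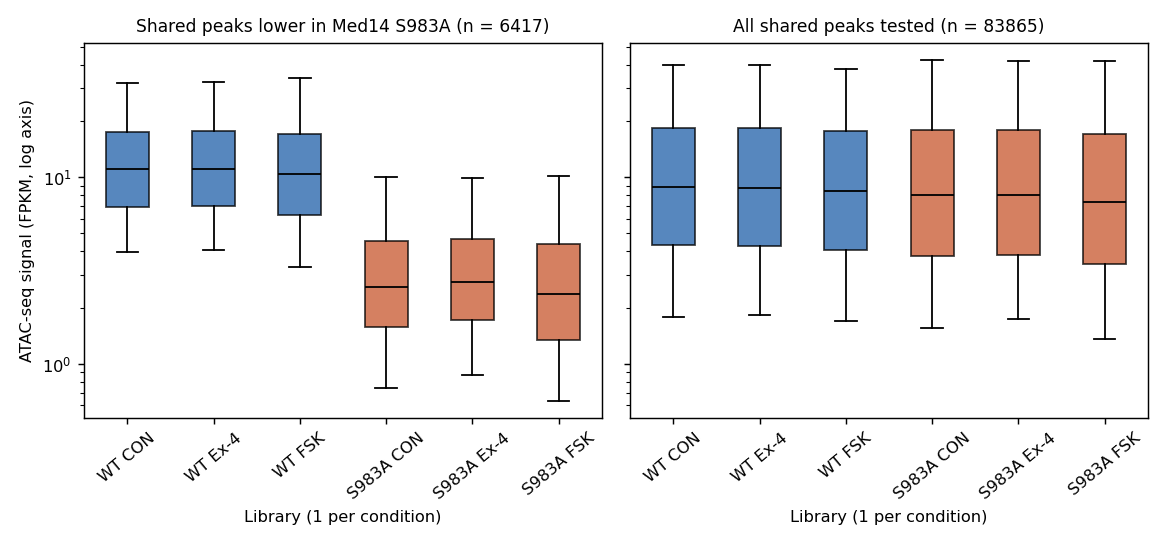
Level in FPKM, on a log axis, in each of the 6 libraries for the 6417 shared peaks lower in Med14 S983A (left) and for all 83865 shared peaks tested (right). Boxes span the quartiles over peaks with the median as a line, and whiskers reach the 5th and 95th percentiles. The medians of the selected peaks drop from between 10.4 and 11.1 FPKM in WT to between 2.38 and 2.74 in the mutant, whereas those of all tested peaks stay between 7.38 and 8.85.

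Since the rule used every genotype difference, the following values describe the selection. The median difference between Med14 S983A and WT was -1.66 in CON, -1.61 after Ex-4 and -1.68 after FSK on the log2(FPKM + 0.5) scale, against 0.045, 0.046 and 0.030 over all tested peaks. Taken treatment by treatment, 10.5% of tested peaks were lower by the 2-fold rule in CON, 9.54% after Ex-4 and 11.4% after FSK, and 72.9% of those lower in CON were lower in all 3. Most selected peaks differed by a similar amount whether or not the cells had been stimulated. The range of a peak's 3 differences had a median of 0.33 and a 95th percentile of 0.87, and it was under 0.5 in 4745 peaks (73.9%). The rule favours peaks whose 3 differences are alike. The range was not computed over all tested peaks, so it does not set the selected peaks apart. In 1320 peaks (20.6%) the mutant was at least 4-fold lower in all 3 treatments on this scale, in 254 (3.96%) at least 8-fold, and in 26 at least 16-fold.

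The degree of loss ranged from partial to near absence. Of the selected peaks, 216 were under 1 FPKM in every mutant library, although a peak had been called there in each. At the other end, 162 peaks were still above 10 FPKM in every mutant library. Over the WT libraries 2698 peaks were above 10 FPKM in all 3. These counts were not made over all tested peaks. In Med14 S983A CON, all tested peaks had a 5th percentile of 1.56 FPKM and an upper quartile of 17.9. All 3 WT levels lay above all 3 mutant levels in 6244 of the selected peaks, a pattern found in 22.4% of tested peaks and largely set by the rule. In the other 173 the groups overlapped, the mutant level in one treatment reaching the WT level in another.

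The peak with the largest mean difference lies on chromosome 12 of rn6 from 48794957 to 48795821. It had 62.0 FPKM in WT CON, 58.1 in WT Ex-4 and 38.7 in WT FSK, against 0.646, 0.732 and 0.526 in the mutant under the same treatments. All 3 WT levels were strong and all 3 mutant levels lay below the 5th percentile of tested peaks in their library, a ratio of 95.9 in CON, 79.4 after Ex-4 and 73.6 after FSK. The next peak lies on chromosome 8 from 23756148 to 23757069. It had 30.2, 38.3 and 52.9 FPKM in WT CON, Ex-4 and FSK, and 0.420, 0.494 and 0.433 in the mutant. Its WT level was therefore lowest in CON and highest with FSK, while the 3 mutant levels were alike, and the ratio was 71.8-fold in CON and 122-fold with FSK.

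The third of these peaks lies on chromosome 17 from 23723701 to 23724537. It had 77.3 FPKM in WT CON, 61.9 in WT Ex-4 and 48.0 in WT FSK, and 1.18, 1.33 and 1.10 in the mutant. Here the stimulated WT libraries were below the untreated one, and the mutant libraries were again alike. A peak on chromosome 7 from 114369916 to 114371339 had 18.6, 28.3 and 40.6 FPKM in WT CON, Ex-4 and FSK, whereas the mutant had 0.748, 0.487 and 0.565. At this site FSK was 2.19-fold above CON in WT, and the mutant FSK value was 0.755 of its CON value. On chromosome 18, the peak from 25948786 to 25949358 had 43.1, 44.2 and 40.9 FPKM in WT and 0.716, 1.02 and 1.73 in the mutant. The WT levels were even and the mutant levels were lowest in CON and highest with FSK.

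The remaining 5 of the 10 peaks with the largest differences lie on chromosomes 1, 10, 11 and 12. Over all 10, the WT CON level ran from 18.6 to 77.3 FPKM and the Med14 S983A CON level from 0.420 to 1.61. Their lengths were between 572 and 1423 bp. The 2 pairs on the same chromosome lie far apart, with 10317 kb between those on chromosome 12 and 61354 kb between those on chromosome 1. Although all 10 were near the floor in the mutant, their WT responses to FSK took both directions.

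**Figure D2:**
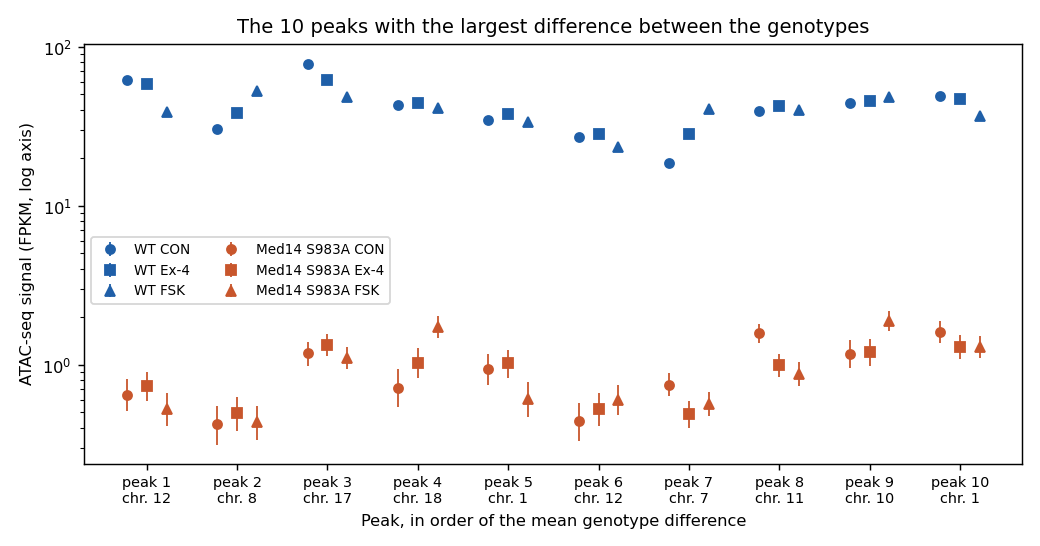
Level in FPKM, on a log axis, of the 10 peaks with the most negative mean genotype difference in the 6 libraries, labelled by chromosome. Points are single libraries and bars their 95% Poisson intervals, which cover counting error only and are mostly smaller than the WT points. Every WT point lies at 18.6 FPKM or above and every Med14 S983A point at 1.88 FPKM or below.

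The 5 selected peaks strongest in WT cells did not, as a group, keep more of their signal than selected peaks in general. Their mean differences were -2.28, -1.83, -1.26, -3.69 and -1.85, against a median of -1.63 over all selected peaks. The highest of the 5 in WT lies on chromosome 17 from 89414203 to 89415054. It had 162 FPKM in WT CON, 159 in WT Ex-4 and 123 in WT FSK. In the mutant it had 31.1, 30.1 and 28.3 FPKM, which is above the median of all tested peaks. A peak on chromosome 20 from 4896782 to 4897439 came next, with 114, 114 and 97.8 FPKM in WT and 30.2, 30.2 and 29.7 in the mutant. Both therefore remained clearly accessible in Med14 S983A cells. Among the 5 highest, the exception was a peak on chromosome 12 from 25587785 to 25588688, which had 79.8, 83.3 and 61.4 FPKM in WT and only 6.27, 5.23 and 4.47 in the mutant. The widest selected peak spans 2553 bp of chromosome 15 from 28015176 to 28017729. Its levels were 21.7, 21.8 and 19.8 FPKM in WT and 9.73, 10.5 and 8.39 in the mutant.

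At the threshold the peaks inside and outside the rule were alike. Within 0.1 of it, by the smallest of the 3 losses, lay 930 selected peaks and 1036 that were not selected. Just inside, a peak on chromosome 11 from 83640890 to 83641330 had 17.7, 18.5 and 17.2 FPKM in WT and 8.58, 8.37 and 7.94 in the mutant. Just outside, a peak on chromosome 16 from 6327718 to 6328091 had 5.06, 4.95 and 6.60 FPKM in WT and 1.84, 2.22 and 2.65 in the mutant. A second peak just outside, on chromosome 15 from 47240680 to 47241609, had 10.3, 8.74 and 4.87 FPKM in WT and 2.29, 2.23 and 2.19 in the mutant. It was 4.48-fold lower in the mutant in CON and missed the rule on the FSK libraries alone, where its FPKM was 2.23-fold lower. Both of these outside peaks were more than 2-fold lower in FPKM in every treatment. The 0.5 added before the log kept them out.

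The responses of the selected peaks to Ex-4 and FSK are described next. They use the same libraries as the rule and are not independent of it, and both treatments share the CON library of their genotype. In WT cells, FSK opened 480 selected peaks at least 2-fold (7.48%, against 5.92% of tested peaks) and closed 420 (6.55%, against 3.7%). In Med14 S983A cells, FSK opened 491 of them (7.65%, against 4.53%) and closed 531 (8.27%, against 4.34%). The selected peaks thus moved in both directions in both genotypes. The balance of directions depended on scaling. With each library centred on its median, 5296 peaks were selected. Of these, FSK opened 472 and closed 248 in WT and opened 502 and closed 312 in the mutant. With quantile normalization 5309 were selected. FSK opened 524 and closed 282 of them in WT and opened 535 and closed 251 in the mutant. Shares over all tested peaks were not computed under these scalings, so the excess over tested peaks is known for the deposited scale only.

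Ex-4 moved few selected peaks past 2-fold. It opened 45 in WT (0.701%, against 0.429% of tested peaks) and closed 7 (0.109%, against 0.062%). In Med14 S983A cells it opened 62 (0.966%, against 0.621%) and closed 10 (0.156%, against 0.0489%). In WT the selected peaks had a median change of -0.01 after Ex-4 and -0.17 after FSK, and in the mutant of 0.02 and -0.19, on the log2(FPKM + 0.5) scale. Over all tested peaks these medians were -0.02, -0.14, -0.02 and -0.13.

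The shares of responsive peaks depend on peak length, which differed between the selected peaks and the rest. Among peaks of 400 to 800 bp, FSK opened 7.97% of the selected and 7.71% of all tested peaks in WT, and 8.33% against 6.02% in the mutant. It closed 7.26% against 4.85% in WT and 9.24% against 5.95% in the mutant. Among peaks of 800 to 1200 bp, FSK opened 8.18% of the selected peaks against 4.57% in WT and 8.10% against 3.45% in the mutant. The share closed by FSK in WT was above that of all tested peaks in both length classes, whereas the share opened in WT was nearly the same in the shorter class. These length classes were chosen after the data were seen.

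Peak by peak, the responses of the genotypes can be set side by side only within what the rule allows. At a peak the mutant change minus the WT change equals the genotype difference after treatment minus that in CON, and the rule required both of these to be -1 or lower, so it favours peaks that respond alike. FSK opened 305 of them in both, 175 in WT without reaching 2-fold in the mutant, and 186 in the mutant without reaching 2-fold in WT. No peak opened in one genotype and closed in the other. Over the 480 peaks opened in WT, FSK changed the WT level by a median of 1.30 and the mutant level by 1.20, and over the 491 opened in the mutant the medians were 1.13 for WT and 1.36 for Med14 S983A. Each of these sets was chosen on one genotype, which favours the change in that genotype. Over the 450 peaks with a mean change of at least 1 over both genotypes, the medians were 1.31 in WT and 1.39 in Med14 S983A. Which genotype had more selected peaks opened by FSK depended on the constant added to FPKM before the log. When 1 was added, 5522 peaks were selected, and FSK opened 377 of them in WT and 324 in the mutant. When none was added, 7410 were selected, and FSK opened 638 in WT and 780 in the mutant. Among the peaks closed by FSK, 248 closed in both genotypes. These joint counts were not made over all tested peaks, so they do not set the selected peaks apart.

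Responses that differed by more were counted under the same limits, again over the selected peaks only. Of the 480 peaks opened by FSK in WT, 11 had a mutant change below 0, and in 32 the mutant change was smaller by at least 1. The reverse, a WT change smaller by at least 1 among peaks opened in the mutant, was found in 23. Across the 6417 peaks the FSK changes in the genotypes had a Pearson correlation of 0.84 and a Spearman correlation of 0.82, and the Ex-4 changes of 0.59 and 0.53. Over all tested peaks, the Pearson values were 0.85 for FSK and 0.49 for Ex-4. These correlations run across peaks that share their libraries, are touched by the rule in the selected set, and are a description.

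**Figure D3:**
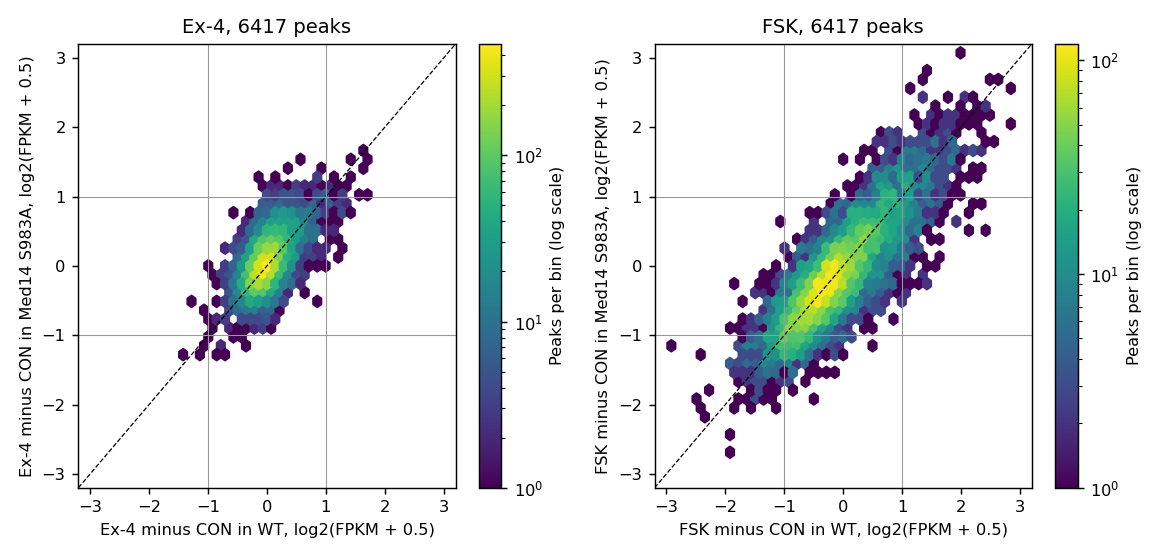
Change with Ex-4 (left) and FSK (right) relative to CON at the 6417 selected peaks, in WT on the horizontal axis and in Med14 S983A on the vertical axis, both on the log2(FPKM + 0.5) scale. Colour gives the number of peaks per bin on a log scale, grey lines mark 2-fold and the dashed line equal changes. The FSK changes spread along the dashed line in both directions, with 305 peaks past 2-fold in the upper right and 248 in the lower left.

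The peaks with the largest FSK response show what this meant for the level. A peak on chromosome 10 from 82899506 to 82900493 had 5.83 FPKM in WT CON, 20.9 in WT Ex-4 and 46.6 in WT FSK. In Med14 S983A cells it had 0.536, 2.46 and 5.53 FPKM. Both genotypes went up with Ex-4 and further with FSK, the FSK ratio being 7.98 in WT and 10.3 in the mutant, yet the FSK level of the mutant only matched the CON level of WT. A peak on chromosome 13 from 102689093 to 102690073 had 5.23, 17.04 and 41.6 FPKM in WT and 1.72, 4.12 and 9.05 in the mutant. A peak on chromosome X from 68786417 to 68787184 had 2.32, 6.01 and 16.7 FPKM in WT and 0.786, 1.65 and 4.07 in the mutant. At both, Ex-4 lay between CON and FSK in each genotype, and the mutant stayed below WT at every treatment.

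The largest FSK increase among the selected peaks in the mutant was at chromosome 10 from 67755402 to 67756067. The mutant levels there were 0.750, 3.27 and 10.2 FPKM in CON, Ex-4 and FSK, a 13.6-fold ratio of FSK to CON. The WT levels were 7.27, 10.8 and 29.7 FPKM, a 4.08-fold ratio. The mutant started far lower and came closer to WT when stimulated, with a ratio of WT to mutant of 9.69 in CON and 2.91 with FSK. At chromosome 3 from 113484642 to 113485581 the mutant had 0.301, 0.579 and 4.67 FPKM and WT had 7.11, 8.21 and 19.9. Here Ex-4 was 1.92-fold above CON in the mutant and 1.15-fold in WT, and FSK was 15.5-fold above CON in the mutant and 2.79-fold in WT. A peak on chromosome 1 from 1871168 to 1871767 was among the 5 largest in both genotypes, with 7.22, 13.4 and 45.8 FPKM in WT and 1.95, 5.36 and 14.9 in the mutant.

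Other selected peaks were lower after stimulation. The largest FSK decrease in WT was at chromosome 14 from 94273281 to 94273766, where the level was 40.3 FPKM without treatment, 16.4 after Ex-4 and 4.94 after FSK. The mutant had 4.53, 2.89 and 1.67 FPKM there. The order CON, Ex-4, FSK was the same in both genotypes, and the ratio of WT to mutant went from 8.89 in CON to 2.96 with FSK. At chromosome 10 from 47987603 to 47988291, WT had 30.0, 13.3 and 5.32 FPKM and the mutant 8.95, 3.24 and 1.61, so that the FSK level was 0.178 of CON in WT and 0.179 in the mutant. At chromosome 17 from 23859090 to 23859625, WT had 17.6, 6.55 and 2.98 FPKM and the mutant 3.41, 1.12 and 1.14. In the mutant, FSK was not below Ex-4 at this site.

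Length is a property that the rule did not use. The selected peaks had a median length of 610 bp (quartiles 478 and 765), with a 95% order-statistic interval of 604 to 616, and all tested peaks had a median of 583 bp (quartiles 392 and 848). The medians were close, and the spread was narrower among the selected peaks, with 5th and 95th percentiles of 319 and 1094 bp against 202 and 1383. The share of tested peaks that were selected was therefore highest at middle lengths. It was 0.586% up to 200 bp, 3.12% from 200 to 300 bp and 5.94% from 300 to 400 bp. It reached 10.1% from 400 to 600 bp and 12.1% from 600 to 800 bp, where 1978 of 16362 tested peaks were selected. Above that it was 8.58% from 800 to 1000 bp, 4.04% from 1000 to 1500 bp and 1.79% from 1500 to 2000 bp. The stably higher peaks varied less with length, from 0.488% up to 200 bp to 2.77% from 600 to 800 bp.

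By chromosome, the selected share was lowest on chromosome X, with 107 of 2491 tested peaks (4.3%), and highest on chromosome 17, with 336 of 2910 (11.5%). Chromosomes 8 (5.79%) and 11 (6.08%) were also low, and chromosomes 12 (9.32%) and 1 (8.83%) were high. The high shares on chromosomes 17 and 12 went along with a lower median genotype difference over the chromosome. In CON this median was -0.16 and -0.17, against 0.10 on chromosome X. Single windows of 1 Mb lay further down, at -1.29 from 7 to 8 Mb of chromosome 17 and -1.42 from 50 to 51 Mb of chromosome 12. Whether the difference was even along each chromosome was not tested. With each difference centred on its chromosome, the share on chromosome 17 was 8.28%. Outside the 4 regions left out, every chromosome had more stably lower than stably higher peaks, the closest being chromosome 9 with 211 and 147. With these regions kept, 6660 peaks were lower and 2494 higher over all chromosomes. That setting was not counted by chromosome.

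**Figure D4:**
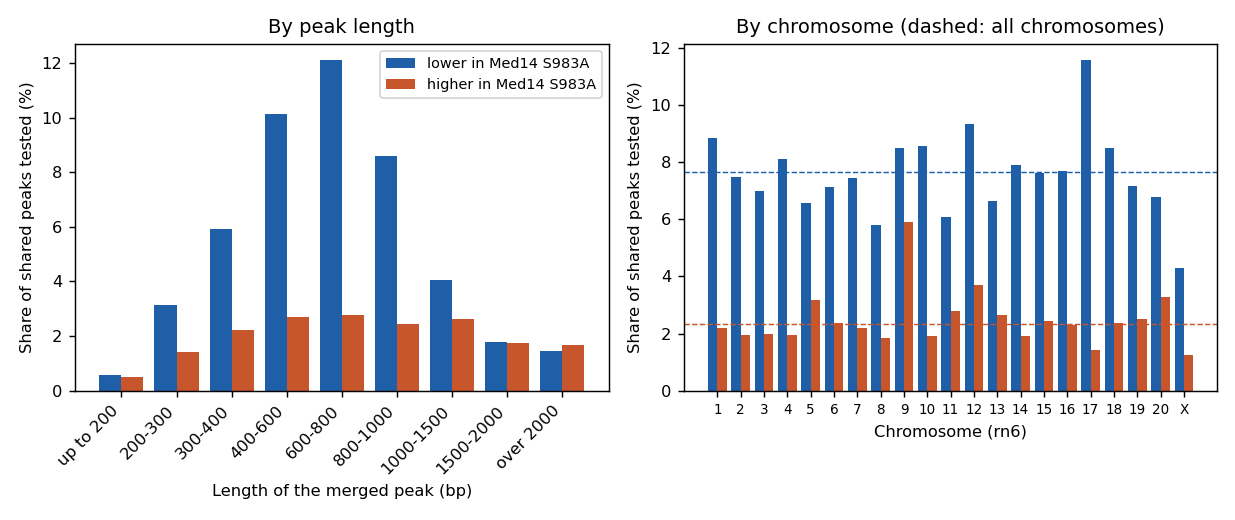
Share of shared peaks tested, in percent, that were stably lower (blue) or stably higher (orange) in Med14 S983A, by length of the merged peak (left) and by chromosome of rn6 (right). Dashed lines give the shares over all chromosomes, 7.65% and 2.35%. The lower peaks are most frequent from 600 to 800 bp (12.1%) and on chromosome 17 (11.5%).

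The selected peaks lay closer to each other than tested peaks did in general. Another selected peak had its centre within 10 kb of 939 of them (14.6%), whereas 6.83% of all tested peaks had a selected peak that near. The density of peaks was not higher around them, as a selected peak had on average 0.966 tested peaks within 10 kb and any tested peak 1.26. Stably higher peaks were seldom near, within 10 kb of 1.12% of the selected peaks against 2.71% of all tested peaks. Among the 1975 stably higher peaks, 3.59% had a stably lower peak within 10 kb and 12.8% another stably higher one. Peaks of the same direction therefore lay together in both sets.

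Peaks called in 1 genotype only were not part of the rule and followed the same pattern. In all, 12172 peaks had been called in the 3 WT libraries and in no mutant library, and 4998 in the 3 mutant libraries and in no WT library. A WT-only peak lay within 10 kb of 16.7% of the selected peaks and of 10.7% of all tested peaks. A mutant-only peak lay within 10 kb of 5.11% of the selected and 6.28% of all tested peaks. Around the stably higher peaks the order was the opposite, with WT-only peaks near 9.87% and mutant-only peaks near 14.2%. Neighbouring peaks are not independent and share their libraries, so these shares are a description.

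Runs of selected peaks along the chromosome were counted as well. With 7.65% of tested peaks selected, most would have no selected neighbour wherever they lay. The share to be met without clustering was not computed, so the next counts do not show that selected peaks were isolated. Counted along the chromosome over tested peaks, 4482 of them (69.8%) had no selected peak next in line on either side. The other 1935 (30.2%) formed 814 runs of at least 2 selected peaks with no other tested peak between them. Only 20 runs had at least 5, with 122 peaks in all. Of 1676 windows of 1 Mb with at least 20 tested peaks, 165 held no selected peak, and the median share was 6.90%. The highest shares were 14 of 26 tested peaks (53.8%) on chromosome 12 from 50 to 51 Mb and 10 of 23 (43.5%) both on chromosome 17 from 7 to 8 Mb and on chromosome 3 from 1 to 2 Mb. A further window on chromosome 4 from 180 to 181 Mb, with 11 of 32, lies next to one of the regions left out.

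The longest run held 12 selected peaks over 199 kb of chromosome 3, from 6754458 to 6953388. The median genotype difference over its peaks was -2.81, -2.73 and -2.66 in the 3 treatments, and single differences ranged from -1.16 to -3.87. The strongest peak of the run in WT CON, from 6812160 to 6813204, had 40.3, 40.1 and 39.0 FPKM in WT and 6.80, 6.93 and 6.78 in the mutant. It was even across treatments in both genotypes. The largest loss was at the widest peak of the run, from 6895668 to 6897454, which had 10.01, 13.8 and 20.01 FPKM in WT and 0.221, 0.731 and 1.52 in the mutant. A peak from 6810882 to 6811637 had 19.0, 26.6 and 50.4 FPKM in WT and 1.16, 1.58 and 4.48 in the mutant. At both, the FSK level was above CON in each genotype, unlike at the strongest peak.

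Past the end of the run the genotypes were closer to each other than before its start. The 10 tested peaks beyond its end began 50.6 kb away, none was selected, and their differences in CON had a median of 0.13 and ranged from -0.78 to 0.28. The first of them, from 7004025 to 7004536, had 11.7 FPKM in WT CON and 9.60 in the mutant. Before the run, the nearest tested peak lay 236 kb away and had a difference of -1.16 in CON, and the 10 nearest had a median of -0.39 with 1 selected peak among them. Inside the run, 41 merged peaks had been called in at least 1 library. Of these, 12 had been called in all 6 libraries, 16 in WT libraries only, 2 in mutant libraries only and 11 in both genotypes without all libraries. By definition, a run holds no tested peak that was not selected. The peaks inside it called in 1 genotype, which the rule did not use, were mostly WT peaks. This count was not made over all merged peaks. WT-only peaks were also the more frequent over the series, with 12172 called in all 3 WT libraries only and 4998 in all 3 mutant libraries only.

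**Figure D5:**
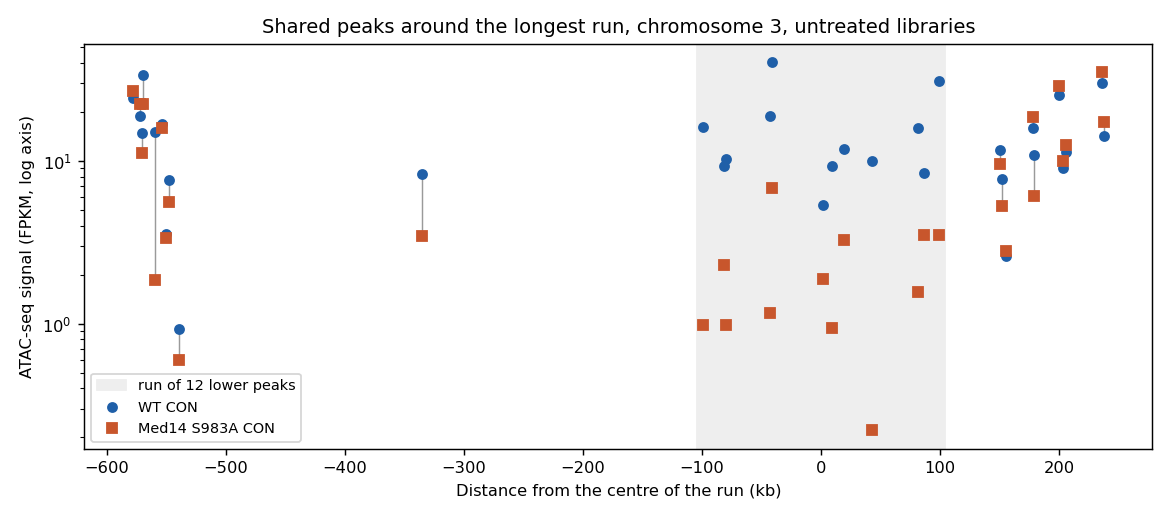
Level in FPKM, on a log axis, of shared peaks in untreated WT and Med14 S983A cells around the run of 12 lower peaks on chromosome 3, by distance in kb from the centre of the run. Each pair of points is a peak, and the shaded band is the run with the 10 tested peaks before and after it outside. The mutant points lie below the WT points in the band and near them after it.

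A run of 9 selected peaks covered 831 kb of chromosome 9 from 27310521 to 28141346, and a run of 8 covered 110 kb of chromosome 6 from 127585566 to 127695958. The median difference in CON was -1.74 in the first and -1.98 in the second. In the run on chromosome 9, the peak from 27864532 to 27865020 had 21.2, 21.9 and 22.6 FPKM in WT and 1.69, 1.76 and 1.70 in the mutant, a 12.5-fold ratio in CON. Another peak of this run, from 27333618 to 27334661, had 34.4, 33.5 and 26.3 FPKM in WT and 16.8, 15.5 and 11.8 in the mutant, close to the threshold. Losses within a run were therefore unequal. In the run on chromosome 6, the largest loss was at the peak from 127668932 to 127669561, with 23.7, 25.7 and 26.9 FPKM in WT and 2.98, 2.89 and 3.12 in the mutant. None of its 8 peaks had an FSK change past 2-fold in either genotype. A run of 6 on chromosome 15 from 5610930 to 6029039 lies just beyond a region that was left out for a shift in the same direction.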

How the data were processed

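The 6 ATAC-seq libraries, 1 per condition, were analysed from the values that the authors deposited. The authors removed adapters with Trim Galore and mapped reads to rn6 with bwa mem. With samtools they dropped duplicates and reads of low mapping quality or from mitochondria. Peaks were called with macs2 and merged, and the FPKM values that the authors deposited were computed with HOMER over the merged peaks. The methods place the shift of fragments for the Tn5 cut site after peak calling, ahead of footprinting. Whether the FPKM values rest on shifted fragments, or on pooled replicates, is stated in no source used here. The product of FPKM and peak length added up to 98.6% or more of what reads inside the library's own peaks would give, so values are relative to those reads. Reads were recovered from the steps between low values, all of which lay within 0.15 of a whole number. A step can stand for a whole read pair or for each of its ends.

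Differences were taken as log2(FPKM + 0.5) over peaks called in all 6 libraries with a mean of at least 1 FPKM. On this scale the change of a weak peak comes out too small. A 2-fold difference was the size rule for all counts. The selected peaks, the lists and the regions left out were chosen with earlier results of these data known. With 1 library per condition, no p-value was computed. Intervals are 95% exact Poisson intervals of the reads or 95% order-statistic intervals of a median over peaks.

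Peaks were named by a rule, which took the 10 selected peaks with the most negative mean difference, the 5 with the highest WT mean, the 5 with the largest FSK increase in each genotype, the 5 with the largest FSK decrease in WT, the 3 nearest to the threshold on each side, the longest runs and the widest peak. A part of these is described in the text. Planned descriptions of motifs, GC content and nearest genes were not made, since no genome or annotation of rn6 was used here. The calculation was tested on simulated reads. Alternatives were other pseudocounts, filters, scalings, fold rules, distances, regions and a rule on a pair of treatments in place of 3. Software was matplotlib 3.10.9, scipy 1.17.1, pandas 2.3.3, numpy 2.4.6 and Python 3.11.15.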

Additional observations from a re-analysis of the deposited data

How the results depend on the processing

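No paired analysis was possible because the labels give no replicate numbers that groups share. The rule itself compares the genotypes within each treatment, and each of the 3 treatment pairs was left out of it in turn, an alternative added after the data were seen. Variation between libraries, which is not known here, limits every comparison, while depth limits little. Centring each library moved the median difference of all tested peaks in CON from 0.045 to 0.16, and left 5296 lower and 2604 higher peaks, a share of 67.0% lower in place of 76.5%. Quantile normalization left 5309 and 2481 (68.2%). Of the values of the main results under alternatives, 131 stayed within the interval of the median or share, or within 1.5 times the count, and 94 moved. Of those that moved, 2 medians close to 0 had the opposite sign, that of Ex-4 in the mutant with quantile normalization and that of Ex-4 in WT with the 4-fold rule. The cause was not tested.

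A 1.5-fold rule selected 12049 peaks and a 4-fold rule 1320. The median genotype difference over the selected peaks was -1.72 with a pseudocount of 0.1, -1.58 with 1, -1.75 with none, -1.66 with a mean of at least 3 FPKM, -1.22 with the 1.5-fold rule and -2.68 with the 4-fold rule. The median WT CON level was 10.4 FPKM with a pseudocount of 0.1, 12.04 with 1, 10.2 with none, 11.9 with a mean of at least 3 FPKM, 10.7 with centring, 11.5 with quantile normalization, 9.96 with the 1.5-fold rule and 15.4 with the 4-fold rule. The median length was 618 bp with quantile normalization, 594 bp with the 1.5-fold rule and 673 bp with the 4-fold rule. The share with another selected peak within 10 kb was 13.7% with a pseudocount of 1, 15.7% with none, 12.8% with centring, 13.3% with quantile normalization, 21.4% with the 1.5-fold rule and 7.5% with the 4-fold rule, and within 100 kb it was 57.7%. On chromosome 17 the share was 8.28% with each chromosome centred.

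Counts of treatment responses moved with the pseudocount, the scaling and the fold rule, each of which also changed the set of selected peaks. With a pseudocount of 0.1, Ex-4 opened 162 and closed 27 and FSK closed 949 selected peaks in Med14 S983A, with a median FSK change of -0.23. With no pseudocount, an alternative added after the data were seen, Ex-4 opened 218 and closed 37, FSK opened 780 and closed 1088 in the mutant with a median of -0.24, and FSK closed 653 in WT. With a pseudocount of 1, Ex-4 closed 2 in WT, opened 11 and closed 2 in the mutant, and FSK closed 253 in WT, opened 324 and closed 222 in the mutant, with median FSK changes of -0.15 in WT and -0.15 in the mutant. With centring, the median change was -0.0012 after Ex-4 and -0.10 after FSK in WT and -0.082 after FSK in the mutant, Ex-4 closed 4 in WT, and FSK closed 248 in WT and 312 in the mutant. With quantile normalization, the medians were -0.0059 after Ex-4 and -0.094 after FSK in WT and -0.020 after Ex-4 and -0.036 after FSK in the mutant, Ex-4 opened 39 and FSK closed 251 in the mutant. With the 1.5-fold rule applied to selection and responses alike, Ex-4 opened 334 and closed 100 in WT and opened 716 and closed 156 in the mutant, FSK opened 1836 and closed 2809 in WT and opened 1727 and closed 3082 in the mutant, and the medians were -0.021 after Ex-4 and -0.20 after FSK in WT and -0.21 after FSK in the mutant. With the 4-fold rule, Ex-4 opened 0 and closed 0 in WT and opened 0 and closed 0 in the mutant, FSK opened 7 and closed 0 in WT and opened 8 and closed 1 in the mutant, and the medians were 0.0013 after Ex-4 and -0.11 after FSK in WT and 0.046 after Ex-4 and -0.063 after FSK in the mutant. The mean differences of the 10 named peaks with the largest loss ran from -6.46 to -4.15 over 100 values, with no change of sign.

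Without the CON pair the rule selected 6965 peaks, without the Ex-4 pair 7147 and without the FSK pair 7052. The median genotype difference was -1.58, -1.56 and -1.57 in that order. Without the CON pair, the median change was -0.0068 after Ex-4 in WT, 0.0078 after Ex-4 in the mutant and -0.21 after FSK in the mutant, and the median WT CON level was 10.7 FPKM. Without the Ex-4 pair, the median Ex-4 change in the mutant was 0.049, the WT CON level 10.5 FPKM, the length 602 bp and the share with another selected peak within 10 kb 15.6%. Without the FSK pair, the median change in WT was -0.023 after Ex-4 and -0.20 after FSK, and the share within 10 kb was 15.8%.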
